A study of Homo sapiens with 20 samples.

Results

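The comparison described here is the interval from 2 h to 5 h of ricolinostat in OPM2 cells, a human multiple myeloma cell line. It sets the 2 libraries harvested at 5 h against the 2 harvested at 2 h, over every gene expressed well enough to test, which was 20957 of 78932 gene identifiers. These are 4 of the 20 RNA sequencing libraries of a study of histone deacetylase (HDAC) inhibitors in which all cells came from the same line and each condition had 2 independent biological replicates. The ricolinostat dose is 100 nM in the titles, the protocol and the design text, but 10 nM in each sample's treatment entry. The other groups used below are vehicle (DMSO), ricolinostat at 20 h, and panobinostat and romidepsin, each at 10 nM, at 2 h and 5 h. The DMSO group has no harvest time in its labels, so no vehicle library was matched to either time, and the effect of ricolinostat over these hours and that of time in culture cannot be told apart.

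HDAC enzymes remove acetyl groups from lysines of histones and other proteins, and their inhibition raises acetylation and shifts transcription within hours. Ricolinostat is a hydroxamic acid that prefers HDAC6, a mostly cytoplasmic enzyme whose known substrates are α-tubulin, the chaperone HSP90 and other cytosolic proteins, and it reaches the nuclear HDAC1, HDAC2 and HDAC3 at higher exposure. Myeloma cells are malignant plasma cells, which secrete much protein and depend on the unfolded protein response, on the transcription factors IRF4 and MYC and on the anti-apoptotic protein MCL1.

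Total counts of the 4 libraries lay between 22211037 and 27405987, within the 17264640 to 29088868 of all 20. The first principal component of the 4 libraries held 42.3% of their variance and separated 2 h from 5 h, and the second held 29.1%. The 2 libraries at 5 h differed from each other by a chi-square of 4.25 per degree of freedom over genes, against 2.61 for the pair at 2 h and 2.35 to 6.48 over the 10 groups. Summed plasma cell markers were 5442 and 5399 CPM (counts scaled to library size) at 2 h and 5387 and 5161 CPM at 5 h. Summed markers of other cell kinds were low: myeloid markers came to 1.13 and 1.21 CPM at 2 h and 1.93 and 2.03 CPM at 5 h, with 6 and 5 of 10 at 0, and lists for epithelial, stromal, erythroid, early B, NK and T cells stayed under 1 CPM. Their part in the results was not tested. Because these are bulk samples, fewer cells of a kind and less RNA per cell cannot be told apart.

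Between 2 h and 5 h, 1401 genes rose (6.69% of the 20957 tested) and 1798 fell (8.58%), together 3199 genes or 15.3%. A gene passed at a Benjamini-Hochberg adjusted p under 0.05 in edgeR's quasi-likelihood test. The changes were mostly small: the median log2 change was 0.44 among genes that rose and -0.27 among those that fell, and 0.004 over all genes. A change of at least 2-fold was found for 223 of the rises (1.06% of genes tested) and 56 of the falls (0.267%). Of these 223 rises 200 stayed under 5 CPM in both groups, and 31 had no count at 2 h. Of the 56 falls 46 stayed under 5 CPM, and 6 had no count at 5 h. Scaling by library size alone turned the balance of calls, to 1978 genes higher and 1286 lower, a share of higher calls of 60.6% against 43.8%; it moved the median over all genes from 0.004 to 0.05. The counts also depended on single libraries. Without the first or the second 2 h library 765 or 751 genes rose and 1065 or 1254 fell, and without the first or the second 5 h library 901 or 810 rose and 1915 or 1366 fell.

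**Figure D1:**
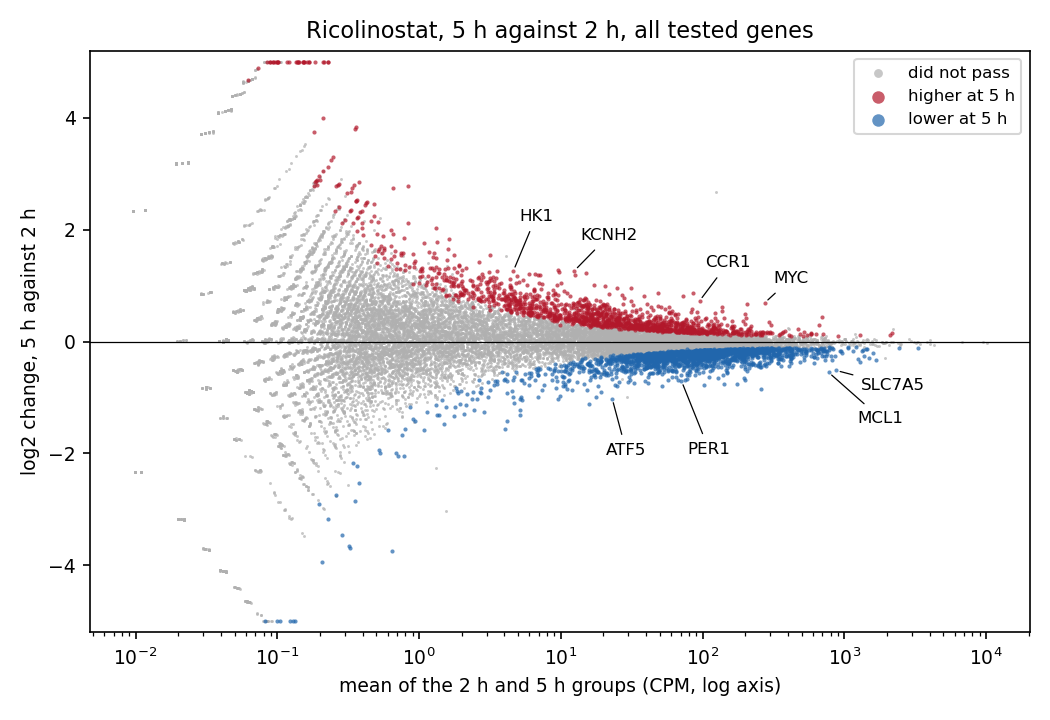
Log2 change from 2 h to 5 h of ricolinostat (vertical axis) against the mean CPM of both groups (horizontal axis, log scale), with 1 point per tested gene; red genes rose, blue genes fell, grey genes did not pass the test, and changes beyond 5 are drawn at 5. The labelled genes range from ATF5 at -1.02 to KCNH2 at 1.27, and at high levels the blue points reach further along the axis than the red.

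Rises and falls lay at different expression levels. Among the 8112 genes under 1 CPM, 116 rose and 29 fell. Among the 2504 genes at 5 to 20 CPM, 390 rose (15.6%) and 136 fell (5.43%). The order was the other way round among the 4596 genes at 20 to 100 CPM, where 506 rose (11.0%) and 817 fell (17.8%). Among the 2743 genes at 100 CPM or more, 164 rose (5.98%) and 768 fell (28.0%). The median log2 change of the falls went from -2.74 under 1 CPM to -0.20 at 100 CPM or more, so smaller changes passed at higher levels. This split was counted with the scaling of the main test only, and its dependence on scaling was not tested. Counts for lists of genes below are read beside these shares. Protein-coding genes made up 13609 of the 20957 genes tested, 1243 of the 1401 rises and 1749 of the 1798 falls.

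**Figure D2:**
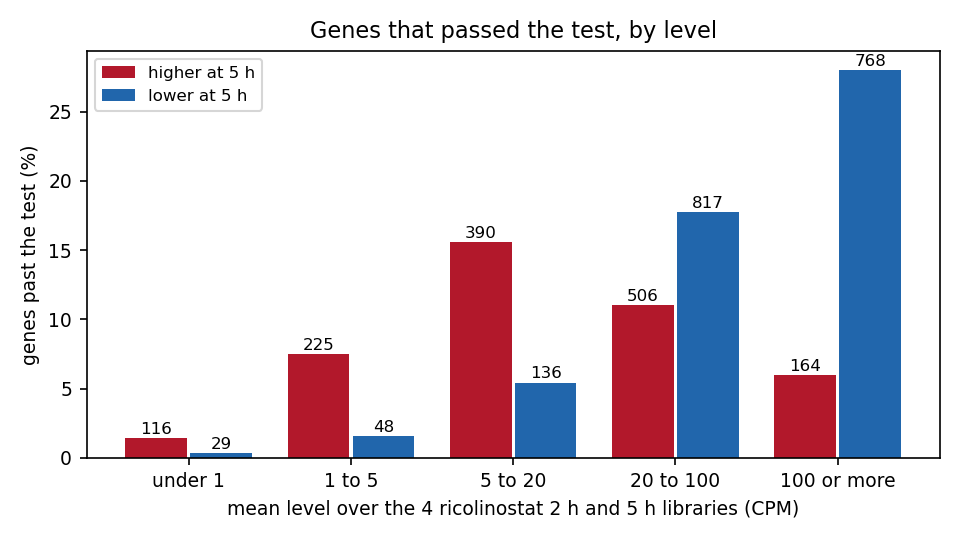
Percentage of tested genes that rose (red) or fell (blue) from 2 h to 5 h of ricolinostat, by mean CPM over the 4 libraries; the number above each bar counts genes. With the scaling of the main test, the share of genes that rose is largest at 5 to 20 CPM (15.6%). The share that fell is largest at 100 CPM or more (28.0%).

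The genes that rose most among protein-coding genes reaching 5 CPM were led by FAM171A2 and KCNH2. KCNH2, the pore-forming subunit of the hERG potassium channel (chr7:150944961-150978315, GRCh38), measured 8.09 and 6.59 CPM at 2 h and 17.3 and 18.02 CPM at 5 h. Its log2 change was 1.27 ± 0.13 (SE, n = 2 per group, adjusted p = 5.6e-13). DMSO libraries held 6.48 and 5.14 CPM and 20 h libraries 12.7 and 10.3 CPM, so that the 5 h libraries were the highest of these 4 groups and overlapped none of them. HIP1, an endocytic adaptor that binds clathrin, went from 9.49 and 8.61 to 22.4 and 19.7 CPM and lay back at 10.1 and 11.97 CPM at 20 h (log2 change at 5 h 1.22 ± 0.13, adjusted p = 1.6e-11). OSBPL6, a lipid-binding protein of the oxysterol-binding family, went from 4.07 and 3.93 to 9.19 and 9.22 CPM and measured 4.49 and 4.26 CPM at 20 h. Both genes were highest at 5 h of these times and lower again at 20 h.

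The other large rises mixed several functions. HK1, a hexokinase of the first step of glycolysis, went from 2.93 and 2.54 to 6.88 and 6.18 CPM (1.26 ± 0.16, adjusted p = 1.2e-09). The more abundant hexokinase gene HK2 fell, from a mean of 193 to 159 CPM (-0.28 ± 0.05). CGN, the tight junction protein cingulin, rose by 1.24 ± 0.15 and MPP7, a scaffold protein of cell junctions, by 1.19 ± 0.14 on the log2 scale. ETV1, an ETS family transcription factor, was at 2.03 and 2.39 CPM in DMSO, 4.85 and 3.61 at 2 h, 9.15 and 10.1 at 5 h and 8.82 and 7.98 at 20 h. The log2 changes of FAM171A2, PPP4R4, FAM227A and DAGLA, an enzyme that makes an endocannabinoid, lay between 1.11 and 1.28. SYT1, the calcium sensor of synaptic vesicles, was the member of a list of 17 tested neuronal genes that rose, from 52.6 and 52.98 to 89.1 and 96.3 CPM (0.81 ± 0.06, adjusted p = 9.6e-22). TUBB3, a neuronal tubulin, measured 0.306 and 0.119 CPM at 2 h and 0.462 and 0.515 CPM at 5 h and did not pass (1.20 ± 0.52, adjusted p = 0.11).

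The chemokine receptor genes CCR1 and CCR2 were among the clearest rises. Of the other receptors of this kind, CXCR4 rose by a log2 change of 0.17 ± 0.06. CCR10 (-0.14 ± 0.12) and CX3CR1, at means of 0.04 and 0.09 CPM, did not pass. CCR1, a receptor for CCL3 and related chemokines (chr3:46201709-46208396), was at 301 and 287 CPM in DMSO, 72.3 and 71.4 at 2 h, 125 and 113 at 5 h and 344 and 342 at 20 h. The 2 h libraries were the lowest of the 4 groups, and the log2 change from 2 h to 5 h was 0.73 ± 0.05 (adjusted p = 3.1e-21). CCR2, the receptor for CCL2 (chr3:46353734-46360928), went from 7.30 and 8.10 to 18.3 and 16.9 CPM, above the 12.7 and 13.1 CPM of DMSO (1.19 ± 0.14, adjusted p = 1.8e-11). CCL3, a ligand of CCR1, has reads that can be shared with near-identical copies of the gene. It went from 1.92 and 2.42 to 4.85 and 4.73 CPM (1.13 ± 0.21, adjusted p = 1.3e-05) and lay at 28.2 and 23.4 CPM at 20 h. Over all genes tested, 6.69% rose and 8.58% fell. Over the list of cytokines, chemokines and their receptors 5 of 20 tested members rose and 1 fell, with a median of 0.23 against 0.004 for all genes; 3 rose without the second 2 h library or without the first 5 h library.

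MYC, the growth-promoting transcription factor, rose in the interval after a drop. It measured 448 and 432 CPM in DMSO, 216 and 204 CPM at 2 h, 344 and 335 CPM at 5 h and 386 and 378 CPM at 20 h. The 2 h level was the lowest and the groups did not overlap. Its log2 change was -1.07 from DMSO to 2 h, 0.69 ± 0.04 from 2 h to 5 h (adjusted p = 1.7e-24) and 0.17 from 5 h to 20 h. The first and last of these contrasts share libraries with the interval studied; over all genes, 31.5% passed between DMSO and 2 h, 34.1% between DMSO and 5 h, and 37.9% between 5 h and 20 h.

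Other regulators showed values of the same kind, lowest at 2 h and higher at 5 h. ZBTB38, a zinc finger protein that binds methylated DNA, went from 589 and 598 to 851 and 750.3 CPM, with 1574 and 1569.6 in DMSO. MGAT3, an enzyme that modifies N-glycans, went from 111 and 104 to 172 and 157 CPM, with 344 and 348 in DMSO. BTG1, an anti-proliferative factor, went from 171 and 174 to 236 and 224 CPM and reached 487 and 459.7 CPM at 20 h. For each of these 3 genes the adjusted p was 5.1e-12 or smaller. The feedback inhibitors of MAP kinase signalling SPRY1 (0.44 ± 0.07) and DUSP4 (0.38 ± 0.06) also rose. Over all genes tested, 6.69% rose and 8.58% fell. Within the list of immediate-early genes and MAP kinase brakes 9 of 40 rose and 6 fell, against 5 rises without the second 5 h library and 2 falls without the first. NR4A2, an immediate-early nuclear receptor, fell from 4.72 and 4.21 to 2.65 and 2.57 CPM.

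**Figure D3:**
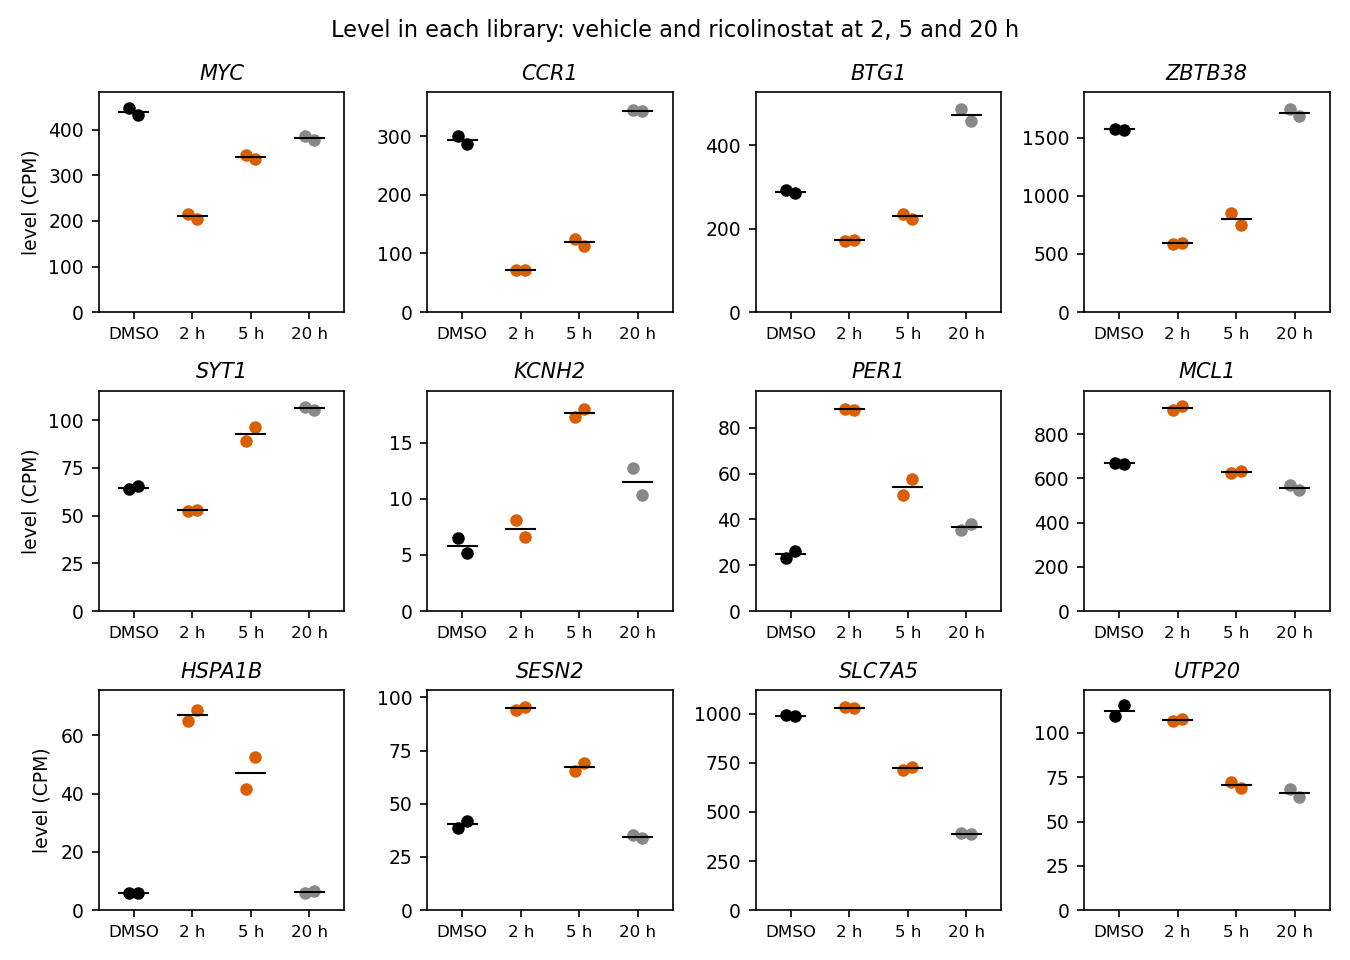
CPM in each of 2 libraries (points) and their mean (bar) for 12 genes in DMSO and at 2, 5 and 20 h of ricolinostat; orange points are the 2 h and 5 h libraries compared here. MYC, CCR1, BTG1, ZBTB38 and SYT1 are lowest at 2 h, PER1, MCL1, HSPA1B and SESN2 are highest at 2 h, and KCNH2 is highest at 5 h.

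Of 30 plasma cell and myeloma genes 7 were higher and 6 lower (median 0.02), beside 6.69% and 8.58% of all genes. Without the first 2 h or the first 5 h library 4 were higher, without the first 5 h library 9 were lower, and under scaling by library size alone 9 were higher and 6 lower. XBP1, the transcription factor of secretory cells, rose from 594 and 596 to 749 and 712 CPM (0.30 ± 0.04, adjusted p = 4.9e-10), under the 910.2 and 928 CPM of DMSO. IRF4, on which myeloma cells depend, fell from 1518 and 1483 to 1247 and 1268 CPM (-0.25 ± 0.03, adjusted p = 3.8e-09). FGFR3 (0.15 ± 0.03) and NSD2 (0.12 ± 0.03), placed beside immunoglobulin enhancers by the translocation that OPM2 carries, were slightly higher at 5 h. Without any of 3 single libraries these 2 calls were lost, and the log2 change lay between 0.10 and 0.16 for FGFR3 and between 0.07 and 0.11 for NSD2. No change passed for PRDM1 (0.06, 95% interval -0.02 to 0.14), CCND2 (-0.01, -0.09 to 0.08) or IKZF1 (-0.08, -0.17 to 0.01). Without the first 5 h library the change of IKZF1 was -0.22 and passed, and under scaling by library size alone that of PRDM1 was 0.11 and passed.

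Of 20 pro-apoptotic genes 3 rose and 3 fell (median -0.11), and of 10 anti-apoptotic genes 1 rose and 3 fell (median -0.15). Among all genes tested 6.69% rose and 8.58% fell. MCL1, the anti-apoptotic protein named above (chr1:150574551-150579738), was at 672 and 665 CPM in DMSO, 911 and 929 at 2 h, 626 and 632 at 5 h and 568 and 549 at 20 h. Its 2 h libraries were the highest, and the change to 5 h was -0.55 ± 0.04 (adjusted p = 4.6e-24). APAF1, the scaffold of the apoptosome, stood at 32.5 and 35.7 CPM in DMSO, 128 and 118 at 2 h and 95.5 and 104 at 5 h (-0.31 ± 0.05). BCL2L11, which encodes the pro-apoptotic BIM, changed by -0.19 ± 0.06 (adjusted p = 0.015), a call lost without the first 2 h library (-0.16), without the second 5 h library (-0.19) and under scaling by library size alone (-0.14). With any 1 of the 4 libraries left out, the pro-apoptotic rises were 0 or 1, and without the second 2 h library 1 anti-apoptotic gene fell. CDKN1A, the p21 cell cycle inhibitor, did not pass (0.07, 95% interval -0.05 to 0.18).

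Ribosome biogenesis was the list with the largest share of members that fell. Of its 40 tested genes 27 fell and none rose, and the median was -0.23, against 8.58% of all genes that fell and a median of 0.004. Among all genes, 28.0% of those at 100 CPM or more and 17.8% of those at 20 to 100 CPM fell. UTP20, a component of the small-subunit processome, was at 109 and 116 CPM in DMSO, 107 and 108 at 2 h and 72.2 and 68.9 at 5 h (-0.60 ± 0.06, adjusted p = 6.3e-15). UTP15 of the same machinery went from 58.0 and 66.0 to 43.1 and 39.9 CPM. RRN3, which recruits RNA polymerase I, went from 176 and 199 to 135 and 139 CPM (-0.45 ± 0.05), and UBTF, the upstream binding factor of ribosomal DNA, from 288 and 283 to 227 and 192 CPM (-0.44 ± 0.05). DDX21, a nucleolar RNA helicase, went from 405 and 409 to 317 and 288 CPM (-0.43 ± 0.04). Leaving out any 1 of the 4 libraries left 21 to 29 members lower and none higher. Scaling by library size alone gave 24 lower and 2 higher. The genes of the cytosolic ribosomal proteins themselves stayed close to 0, with 0 of 39 higher, 1 lower and a median of 0.005, although library size scaling called 6 of them higher. The 13 mitochondrially encoded mRNAs included no call in either direction.

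**Figure D4:**
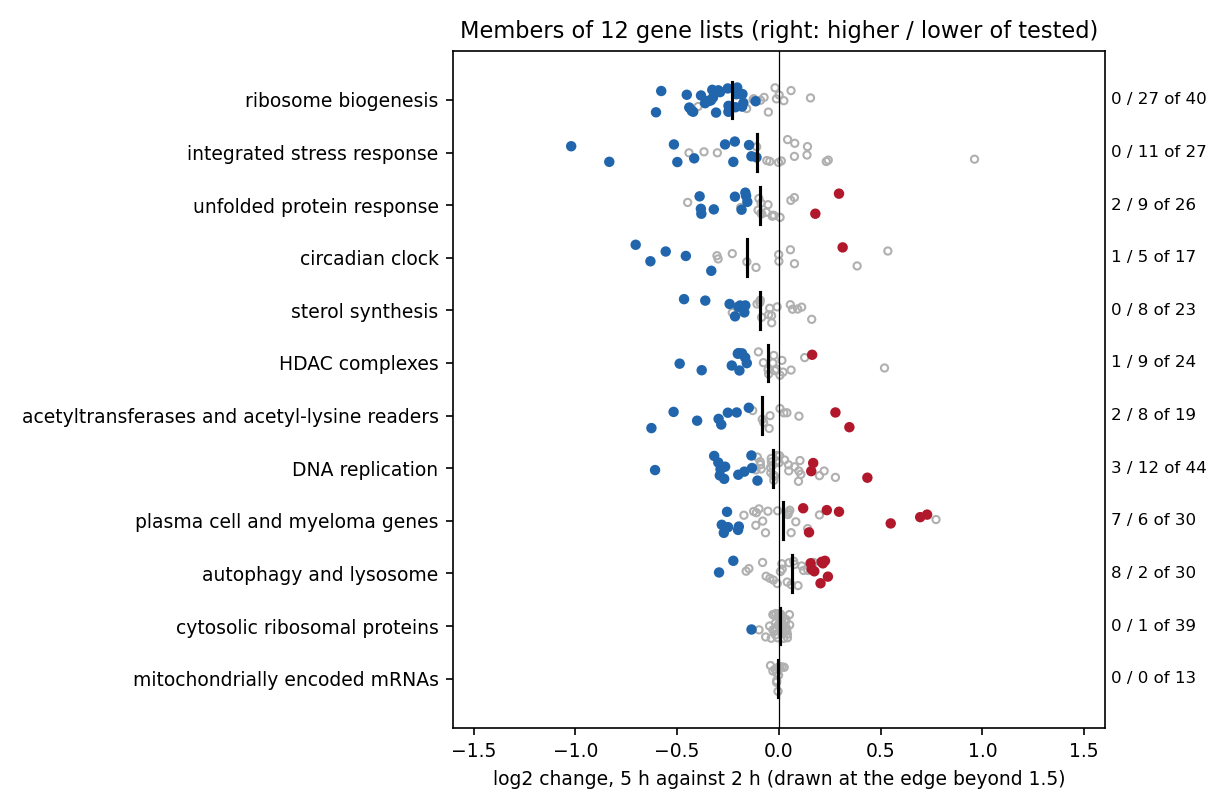
Log2 change from 2 h to 5 h of ricolinostat for each tested member of 12 gene lists (points), with red for members that rose, blue for those that fell and open grey for those that did not pass; changes beyond 1.5 are drawn at the edge, black bars are medians and the numbers at the right count members higher, lower and tested. Of the 40 ribosome biogenesis genes 27 are blue and their median is -0.23, while the ribosomal protein genes cluster at 0.

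Genes of the integrated stress response, which translation stress and amino acid shortage turn on through ATF4, fell in 11 of 27 cases and rose in none (median -0.11). Under scaling by library size alone 8 fell and none rose. Of all genes 8.58% fell, with 17.8% of those at 20 to 100 CPM and 28.0% of those at 100 CPM or more. ATF5, a transcription factor of this response, went from 30.0 and 31.8 to 16.7 and 13.6 CPM (-1.02 ± 0.10, adjusted p = 1.1e-13). DDIT3, which encodes CHOP, went from 12.5 and 11.0 CPM to 5.81 and 7.49 CPM, beside 6.39 and 6.67 CPM in DMSO (-0.83 ± 0.13, adjusted p = 3.7e-07). SESN2, a leucine sensor, was at 38.4 and 42.1 CPM in DMSO, 94.1 and 95.4 at 2 h and 65.3 and 68.9 at 5 h (-0.50 ± 0.06). PPP1R15A, the stress-induced phosphatase subunit that restores translation, fell from 94.8 and 93.9 to 70.3 and 71.2 CPM. SLC7A5, a transporter of large neutral amino acids, had 993 and 986 CPM in DMSO, 1035 and 1027 at 2 h, 715 and 727 at 5 h and 394 and 386 at 20 h (2 h to 5 h -0.52 ± 0.04, adjusted p = 5.8e-19). DDIT3, SESN2 and PPP1R15A were thus above DMSO at 2 h, whereas SLC7A5 was near it and ATF5 below it.

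The unfolded protein response had 9 of 26 members lower and 2 higher (median -0.09), and 6 lower and 2 higher under scaling by library size alone. Among all genes, 17.8% of those at 20 to 100 CPM and 28.0% of those at 100 CPM or more fell. HSPA5, the chaperone BiP of the endoplasmic reticulum, went from 689 and 689.9 to 557 and 499.8 CPM, beside 611 and 593 CPM in DMSO (-0.38 ± 0.04, adjusted p = 4.9e-14). HERPUD1 (-0.38 ± 0.05) and SYVN1 (-0.32 ± 0.05), both of the pathway that degrades misfolded proteins of the endoplasmic reticulum, and the stress sensor ERN1 (-0.39 ± 0.06) fell as well. Without the first 2 h library 5 members were lower. The region upstream of HSPA5 is shown because its list has a known promoter element, the endoplasmic reticulum stress element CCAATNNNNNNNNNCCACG. Among the 250 bases before the start of 12332 tested genes with a RefSeq entry (GRCh38.p14), 0.154% held it on either strand, as did 7 of 24 genes of this list, and 2 of its 9 lower members, HSPA5 and CANX. XBP1, which rose, held it too. The stretch of HSPA5 is chr9:125241344-125241593 on the minus strand, written 5′ to 3′ in the direction of the gene, and capitals mark the element, which begins 66 bases before the start.
HSPA5: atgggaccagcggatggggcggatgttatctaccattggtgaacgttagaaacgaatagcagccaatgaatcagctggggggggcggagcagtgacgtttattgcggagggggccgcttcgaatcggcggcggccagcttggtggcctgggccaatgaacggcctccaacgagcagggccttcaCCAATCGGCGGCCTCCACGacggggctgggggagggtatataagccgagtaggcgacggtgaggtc

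Clock genes formed a small group in which 5 of 17 tested members fell and 1 rose (median -0.16). Of all genes 8.58% fell, and of those at 20 to 100 CPM 17.8%. PER1, a repressor of the circadian loop, stood at 23.4 and 26.2 CPM in DMSO, 88.2 and 87.7 at 2 h, 50.6 and 57.7 at 5 h and 35.6 and 38.04 at 20 h. The 2 h libraries were the highest, and the change to 5 h was -0.70 ± 0.06 (adjusted p = 1.7e-17). CRY2, a repressor of the same loop, went from 51.4 and 49.3 to 31.1 and 34.0 CPM (-0.63 ± 0.07), also above the 20.6 and 20.4 CPM of DMSO. PER2 went from 42.4 and 45.7 to 30.5 and 29.4 CPM (-0.56 ± 0.08) and NR1D2, the nuclear receptor REV-ERBβ, from 38.6 and 37.4 to 28.8 and 26.3 CPM (-0.46 ± 0.08). Both ended below the DMSO libraries, at 39.9 and 40.5 CPM for PER2 and 43.2 and 43.5 CPM for NR1D2. BHLHE40, another repressor of the loop, went from 24.4 and 25 to 20.3 and 19.0 CPM (-0.33 ± 0.10, adjusted p = 0.0078). With 1 library left out its change lay between -0.42 and -0.30, and it passed only without the first 5 h library.

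The clock proteins CLOCK and BMAL1 bind the E-box CACGTG, and the upstream regions of PER1 and NR1D2 are shown for it. Of the 12332 genes with a RefSeq entry 10.8% had the letters CACGTG within 250 bases before a start, as did 14.2% of the genes that fell and 11.8% of those that rose. In the clock list 5 of 16 genes with an entry had it. CIART and TEF were among them and did not pass the test of change. Of the 5 lower clock genes 3 had it, namely PER1, NR1D2 and BHLHE40, and of 23 lower ribosome biogenesis genes with an entry also 3. MYC binds the same letters, which read alike on both strands. The PER1 stretch is chr17:8152405-8152654 on the minus strand, with a match 173 bases before the start, and the NR1D2 stretch is chr3:23945871-23946120 on the plus strand, with matches at 155 and 105 bases; capitals mark the matches. A match describes letters and was not tested as a binding site.
PER1: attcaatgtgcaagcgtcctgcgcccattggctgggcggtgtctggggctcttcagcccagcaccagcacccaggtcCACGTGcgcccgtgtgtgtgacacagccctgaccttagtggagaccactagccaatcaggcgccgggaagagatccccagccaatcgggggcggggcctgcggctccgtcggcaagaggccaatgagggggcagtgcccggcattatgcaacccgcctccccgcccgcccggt
NR1D2: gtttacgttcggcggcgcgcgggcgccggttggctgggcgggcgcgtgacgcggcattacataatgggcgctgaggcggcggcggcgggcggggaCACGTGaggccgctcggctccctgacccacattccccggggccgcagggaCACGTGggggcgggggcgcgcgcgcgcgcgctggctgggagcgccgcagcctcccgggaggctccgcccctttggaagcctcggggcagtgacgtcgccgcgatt

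Of 24 heat shock genes 5 fell, 1 rose and 18 did not pass (median -0.04). Among all genes tested 8.58% fell and 6.69% rose. The share that fell was 17.8% at 20 to 100 CPM and 28.0% at 100 CPM or more. HSPA1B, an inducible HSP70 chaperone, was at 6.01 and 6.04 CPM in DMSO, 64.8 and 68.8 at 2 h, 41.7 and 52.5 at 5 h and 5.86 and 6.53 at 20 h. The fall from 2 h to 5 h was -0.51 ± 0.07 (adjusted p = 3.5e-09). Its near-identical copy HSPA1A had 6.38 and 7.02 CPM at 2 h and 4.62 and 5.57 CPM at 5 h and did not pass (-0.40, 95% interval -0.78 to -0.03, adjusted p = 0.15). How reads shared by the 2 copies were counted is not given in the sources used here. HSF2, a heat shock transcription factor, fell from 47.7 and 48.7 to 37.9 and 34.1 CPM. Over the list 2 genes fell without the first or the second 2 h library, and 2 fell and 3 rose under scaling by library size alone.

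HDAC6, the enzyme for which ricolinostat is selective, did not pass. It measured 52.1 and 49.8 CPM at 2 h and 48.2 and 50.1 CPM at 5 h (-0.05, 95% interval -0.17 to 0.07, adjusted p = 0.68), under the 70.5 and 67.8 CPM of DMSO and the 81.1 and 82.7 CPM of 20 h. HDAC1 changed by 0.13 ± 0.04 (adjusted p = 0.027), a call that was lost without any 1 of the 4 libraries (0.08 to 0.13). HDAC11 went from 3.72 and 3.65 to 6.08 and 6.08 CPM (0.72 ± 0.19, adjusted p = 0.004), a call lost without the second 2 h library (0.69). SIRT7, a sirtuin of the nucleolus, went from 86.2 and 87.4 to 69.1 and 74.1 CPM (-0.28 ± 0.06). Of 17 HDAC enzymes 3 were higher and 3 lower, against 5 and 1 under scaling by library size alone. With any 1 of the 4 libraries left out, at most 1 was higher. Beside 6.69% of all genes tested that rose and 8.58% that fell, 2 of 15 partners and substrates of HDAC6 rose and 3 fell. None of them fell without the first 2 h library, 5 fell without the first 5 h library and 2 without the second, and 1 rose without the second 2 h library. The microtubule protein MAP4 rose from 262 and 251 to 332 and 326 CPM (0.36 ± 0.04).

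In the list of HDAC complexes 9 of 24 fell and 1 rose, where 8.58% of all genes tested and 28.0% of those at 100 CPM or more fell. SIN3A, the scaffold of a corepressor complex, was at 161 and 153 CPM in DMSO, 262 and 254 at 2 h and 197 and 200.1 at 5 h (-0.38 ± 0.05). MBD3 of the NuRD complex went from 55.03 and 57.9 to 43.2 and 37.2 CPM (-0.49 ± 0.07). Without the first or the second 2 h library 5 or 6 members of the HDAC complexes were lower. Of 19 acetyltransferases and acetyl-lysine readers 8 fell and 2 rose, and 5 fell when either 2 h library was left out. The reader BRPF1 went from 133 and 132 to 91.1 and 94.1 CPM (-0.52 ± 0.06) and the acetyltransferase KAT6B from 34.0 and 36.4 to 27.2 and 26.2 CPM (-0.40 ± 0.08). BRPF1 and SIN3A had been above DMSO at 2 h and KAT6B below it, with 89.0 and 91.8 CPM in DMSO. Of the accessory subunits of Polycomb complex PRC2, PHF19 fell from 170.5 and 167 to 118 and 105 CPM (-0.60 ± 0.05). MTF2 fell from 94.2 and 102 to 70.5 and 72.8 CPM (-0.45 ± 0.06), while PHF1 did not pass (-0.18 ± 0.07). The maintenance DNA methyltransferase DNMT1 went from 469 and 473 to 414 and 396 CPM (-0.22 ± 0.04). The other DNA methyltransferases of the list, DNMT3A (0.37 ± 0.11) and DNMT3B (0.32 ± 0.11), rose. Over the list of Polycomb and DNA methylation genes 5 of 15 fell and 2 rose. Without the first 2 h library 3 of them fell, and the rises were 0 or 1 with any 1 of the 4 libraries left out.

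DNA replication genes fell in 12 of 44 cases and rose in 3 (median -0.03), where 28.0% of all genes at 100 CPM or more and 17.8% of those at 20 to 100 CPM fell. Without the first 2 h library 7 of them fell, and without the second 5 h library 8 did. Rises numbered 0 to 2 with 1 library left out, and under scaling by library size alone 8 fell and 6 rose. MCM5, a subunit of the replicative helicase, went from 473 and 458 to 384 and 373 CPM (-0.30 ± 0.04), and UNG, which removes uracil from DNA, from 127 and 129 to 100.4 and 105 CPM (-0.32 ± 0.05). Of 33 mitosis genes 6 were lower and 2 higher, and under scaling by library size alone 0 were lower and 4 higher. Mitosis genes lower numbered 2 without the first 2 h library and 1 without the second 2 h or the second 5 h library. Of 23 sterol synthesis genes 8 fell and none rose. IDI1, which isomerises a sterol precursor, went from 123 and 126 to 96.5 and 97.6 CPM (-0.36 ± 0.05). Only 2 sterol genes fell without the first 2 h library, 5 without the second 2 h or the second 5 h library, and 5 fell and 2 rose under scaling by library size alone.

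A few lists had more members higher than lower. Over all genes tested 6.69% rose, with 15.6% of those at 5 to 20 CPM and 11.0% of those at 20 to 100 CPM. Of 30 autophagy and lysosome genes 8 rose and 2 fell, with log2 changes of the list between -0.29 and 0.24. With any 1 of the 4 libraries left out only 1 or 2 of them rose. TGIF1, a corepressor of SMAD signalling, went from 5.90 and 6.19 to 9.96 and 9.50 CPM (0.69 ± 0.16), PMEPA1, a feedback inhibitor of the pathway, from 6.03 and 6.98 to 10.4 and 10.6 CPM (0.69 ± 0.16), and ID2, an inhibitor of differentiation factors, from 38.03 and 37.7 to 47.9 and 47.5 CPM (0.33 ± 0.06). Of 16 TGF-beta and BMP targets 4 rose and none fell, and 6 rose and none fell under scaling by library size alone. CIITA, the master regulator of MHC class II, rose from 11.2 and 12.03 to 17.0 and 20.1 CPM (0.67 ± 0.11, adjusted p = 2.7e-06), while no other of the 12 tested class II genes passed.

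Several further lists were counted in the same way. Of 20 aminoacyl-tRNA synthetases 5 fell and none rose, of 31 proteasome genes 4 fell and 1 rose, and of 41 nuclear oxidative phosphorylation genes 1 fell. Of 28 interferon-stimulated genes 2 fell and 1 rose, of 19 MHC class I genes 3 fell and 1 rose, and of 18 NF-kB targets 2 fell and 2 rose. Of 25 genes of glucose uptake and glycolysis 5 rose and 5 fell, and of 26 CDK inhibitors and p53 targets 2 rose and 4 fell. These shares are read against the 6.69% and 8.58% of all genes that rose and fell. The counts moved with single libraries. Proteasome genes lower numbered 1 without the first 2 h or the second 5 h library and 7 without the first 5 h library, and 0 were higher with any 1 of the 4 libraries left out. Aminoacyl-tRNA synthetases lower numbered 3 without the second 2 h library and 8 without the first 5 h library. Oxidative phosphorylation genes lower numbered 4 without the first 5 h library and 0 with any other library left out. For the glucose and glycolysis list 2 to 4 were higher and 2 to 7 lower with 1 library left out, with 7 lower without the first 5 h library and 2 with either 2 h library left out. In the other lists of this paragraph the counts in each direction were between 1 and 4.

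The genes that fell most among protein-coding genes reaching 5 CPM included genes of several functions. ARSB, a lysosomal sulfatase, went from 24.4 and 23.1 to 13.0 and 10.9 CPM, and B3GLCT, a glucosyltransferase of thrombospondin repeats, from 8.74 and 9.60 to 4.62 and 4.68 CPM. HLCS, the enzyme that attaches biotin to carboxylases, went from 23.5 and 20.1 to 9.58 and 10.6 CPM (-1.11 ± 0.12, adjusted p = 3.1e-13), with 24.5 and 23.0 in DMSO and 16.1 and 19.8 at 20 h. COQ7, of ubiquinone synthesis, had 17.96 and 18.5 CPM in DMSO, 11.9 and 13.8 at 2 h, 6.31 and 6.27 at 5 h and 17.2 and 18.8 at 20 h (-1.03 ± 0.13). HLCS, COQ7 and DTWD2, a tRNA-modifying enzyme (7.43 and 7.06 to 3.08 and 3.09 CPM), were lower at 5 h than in DMSO and at 2 h and 20 h. The falls of PHACTR2, PARP9, ZFAT, ERMAP and TMED1 lay between -1.41 and -0.98. SLC39A10, a zinc importer not among the 12 largest falls, fell from 66.6 and 64.4 to 40.7 and 34.1 CPM (-0.80 ± 0.07), and the metal-responsive transcription factor MTF1 from 81.6 and 90.2 to 61.0 and 64.0 CPM.

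Panobinostat, a hydroxamic acid that inhibits many HDACs, and romidepsin, a cyclic depsipeptide that prefers class I HDACs, were sampled at the same times in libraries not shared with ricolinostat, but at 10 nM. With panobinostat 19.8% of genes rose from 2 h to 5 h and 22.2% fell; with romidepsin 8.40% rose and 11.9% fell. Of the 1401 genes that rose with ricolinostat 861 rose with panobinostat, which is 61.5% of the ricolinostat rises and 20.8% of the panobinostat rises, and 132 fell. Of the 1798 that fell with ricolinostat 1227 fell with panobinostat, or 68.2% and 26.4% of each list, and 149 rose. For romidepsin the shared rises numbered 418 (29.8% and 23.8%) and the shared falls 766 (42.6% and 30.7%), with 123 and 196 genes changing the other way. Among genes at 5 CPM or more, 70.3% of the ricolinostat falls also fell with panobinostat, where 43.5% of all such genes did. For rises these shares were 61.2% and 20.9%. With romidepsin they were 44.1% and 24.2% for falls, and 32.7% and 12.8% for rises. Across 10018 genes at 5 CPM or more, Pearson's r between the ricolinostat and panobinostat changes was 0.51, and for romidepsin 0.30. Genes are not independent replicates, and these values are a description.

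The test of the difference between intervals, ricolinostat minus the other inhibitor, found 5146 genes (24.6%) for panobinostat and 2331 (11.1%) for romidepsin. Of the former 3154 were above 0 and 1992 below, and 2296 above and 2569 below under scaling by library size alone. Of the latter 1205 were above 0 and 1126 below, and 959 above and 1318 below under the same scaling. MYC fell from 2 h to 5 h with panobinostat (-0.72) and romidepsin (-0.55) while it rose with ricolinostat (0.69). The difference was 1.41 ± 0.07 for panobinostat (adjusted p = 2.8e-32) and 1.24 ± 0.06 for romidepsin (adjusted p = 6.4e-32). CCR1 differed in the same way, with -1.27 for panobinostat and -0.82 for romidepsin against 0.73. SIN3A fell with all 3, by 0.38 with ricolinostat, 0.41 with panobinostat and 0.36 with romidepsin, and neither difference passed (0.03 ± 0.06 and -0.02 ± 0.07). Of the 40 ribosome biogenesis genes 37 fell with panobinostat and 33 with romidepsin, with medians of -0.53 and -0.28 against -0.23. DDIT3 and SESN2 fell with ricolinostat and rose with romidepsin (0.89 and 0.54), differences of -1.72 ± 0.20 and -1.04 ± 0.08. MCL1 fell with ricolinostat by more than with panobinostat (-0.26), a difference of -0.29 ± 0.05, and rose with romidepsin (0.22), a difference of -0.77 ± 0.05. The HDAC6 changes were -0.05, 0.05 and 0.01, and the differences of -0.11 ± 0.09 and -0.06 ± 0.09 did not pass.

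**Figure D5:**
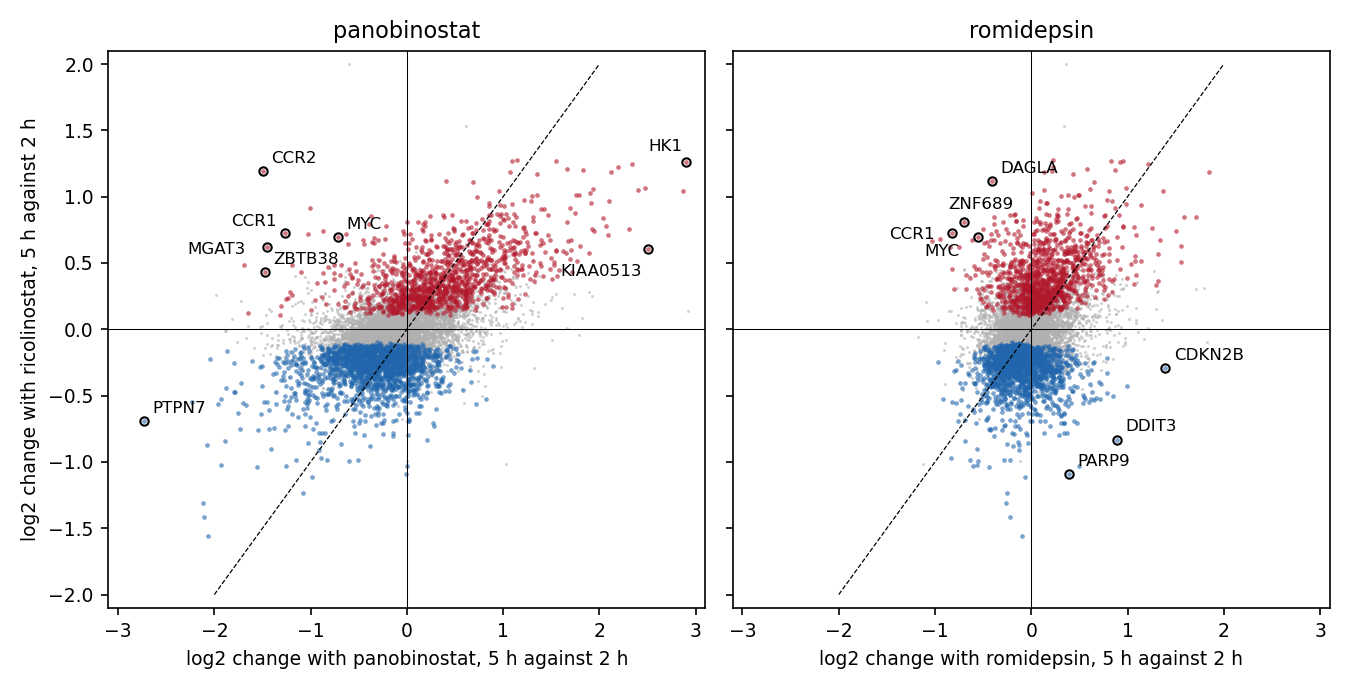
Log2 change from 2 h to 5 h with ricolinostat at 100 nM (vertical axis) against the change over the same interval with panobinostat (left) or romidepsin (right) at 10 nM, for 10018 genes at 5 CPM or more; red and blue genes rose or fell with ricolinostat, the dashed line marks equal change, and changes beyond 3 (horizontal) or 2 (vertical) are drawn at the edge. MYC and CCR1 lie above 0 for ricolinostat and below 0 for both other inhibitors, and Pearson's r is 0.51 at the left and 0.30 at the right.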

How the data were processed

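Poly(A) RNA was sequenced as paired reads of 100 bases with strand-specific libraries, per the labels' protocols. The authors deposited whole-number read counts per gene for all 20 libraries, for which the submitters' processing notes name GRCh38, HISAT2, featureCounts and SAMtools. The sources used here give no tool version, annotation release or strand setting, nor whether pairs or single reads were the unit of counting. Of 78932 identifiers 42179 had a symbol; coordinates are from GENCODE 29. Genes passing filterByExpr (minimum count 10) were tested with edgeR 4.0.16 (R 4.3.3), TMM scaling and robust quasi-likelihood fits over all 20 libraries, which share 1 estimate of the spread, with Benjamini-Hochberg adjustment over all 20957 genes. CPM values use the TMM-scaled library sizes. Interval differences were contrasts of the same fit. Scripts were tested on simulated data. Alternatives were other scalings, no filter, DESeq2 1.42.0, a replicate block, no robust dispersion, the 4 libraries alone, and each library left out. Genes were named by rule: the 12 largest protein-coding rises and falls past the threshold at 5 CPM or more with libraries apart, up to 5 changed members of each of 41 lists, the 5 largest interval differences per direction and comparison, and a fixed panel. Genes and lists were chosen with earlier results of these data known. Some genes that the rule names are not reported here.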

Additional observations from a re-analysis of the deposited data

Results flagged for a closer look

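The change from 2 h to 5 h differed between ricolinostat and another inhibitor most for the following genes, each flagged because the difference itself passed edgeR's quasi-likelihood test. Values are log2 differences, ricolinostat minus the other inhibitor, with SE, and the doses differed (100 nM against 10 nM). Against panobinostat the differences above 0 were led by the chemokine receptor gene CCR2 at 2.69 ± 0.27, followed by MGAT3 at 2.07 ± 0.08, PTPN7 at 2.04 ± 0.14, CCR1 at 2.00 ± 0.10 and ZBTB38 at 1.91 ± 0.06. CCR2, MGAT3, CCR1 and ZBTB38 rose with ricolinostat and fell with panobinostat. PTPN7, a tyrosine phosphatase of blood cells, fell with both, by 0.69 with ricolinostat and 2.73 with panobinostat. The differences below 0 were KIAA0513 at -1.90 ± 0.18, HK1 at -1.64 ± 0.22, PGBD5 at -1.55 ± 0.25, the HSP70 family gene HSPA2 at -1.41 ± 0.18 and SIPA1L2 at -1.38 ± 0.14. All 5 rose with both inhibitors, less with ricolinostat.

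Against romidepsin the differences above 0 were MSX1 at 1.70 ± 0.31, ZNF653 at 1.62 ± 0.28, CCR1 at 1.55 ± 0.07, DAGLA at 1.52 ± 0.29 and ZNF689 at 1.51 ± 0.17. MSX1, ZNF653, CCR1 and ZNF689 rose with ricolinostat and fell with romidepsin, and the romidepsin change of DAGLA (-0.40) did not pass. The differences below 0 were DDIT3 at -1.72 ± 0.20, the CDK inhibitor gene CDKN2B at -1.68 ± 0.14, PARP9 at -1.49 ± 0.25 and LCA5 at -1.43 ± 0.20. DDIT3, CDKN2B and LCA5 fell with ricolinostat and rose with romidepsin. The ricolinostat changes of KIAA0513, PGBD5, CDKN2B, LCA5, MSX1 and ZNF653 were no longer past the threshold in at least 1 fit with a ricolinostat library left out, while the differences above passed in every fit made.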

How the results depend on the processing

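Counts of genes moved more than single genes. With each of the 4 libraries left out in turn, 751 to 901 genes rose (1401 with all) and 1065 to 1915 fell (1798 with all), and the cause was not tested; the remaining library of that time was assumed to vary like the other groups, and 22703 to 23150 genes passed the filter. Differences from romidepsin above 0 numbered 1205, 758 with no filter on low counts (49861 genes tested) and 657 to 944 with 1 library left out; those below 0 numbered 1126 and 757 to 1063, and scaling by library size alone gave 959 above and 1318 below. Differences from panobinostat numbered 3154 above and 1992 below 0, and 2222 to 3024 and 1518 to 1951 with 1 library left out. DESeq2 called 1110 rises and 1866 falls, and with no filter on low counts 963 genes rose and 1767 fell. The labels give no shared culture or day for same-numbered 2 h and 5 h libraries. Their deviation correlation was 0.00913 over 10015 genes, which cannot show that they shared none. A replicate block gave 1397 rises and 1819 falls, 3149 and 1961 differences from panobinostat, and 1210 and 1123 from romidepsin. Of 1340 values of the 97 named genes under the alternatives, 1302 kept their side of the threshold, 36 lost the call and 2 gained one. No called value changed sign; IKZF1, CCND2 and CDKN1A, not called, did under some alternatives. CDKN2B also lost its call with DESeq2, without robust dispersion, under scaling by library size alone and with the 4 libraries alone. MSX1 lost its call with DESeq2. HDAC1 and NSD2 lost theirs with no filter, HDAC1 also with DESeq2-type size factors. Genes under 5 CPM, which make up 200 of the 223 rises of at least 2-fold, limit what depth can show.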

Other observations

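Immunoglobulin light chain genes gave 1 further pattern of values. IGLC3, a lambda constant gene, measured 2007 and 1956 CPM at 2 h and 2002 and 1926 CPM at 5 h of ricolinostat. IGLC2, a near-identical copy, measured 11.8 and 55 CPM at 2 h and 222 and 212 CPM at 5 h, and 15.3 and 17.3 CPM in DMSO. It also varied within other groups, at 214 and 14.5 CPM in the 2 h panobinostat libraries. How reads shared by the copies were counted is not given in the sources used here, so the level of IGLC2 is uncertain.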
